A study of Homo sapiens with 6 samples.

Results

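SAMD9 and SAMD9L, and the Schlafen genes SLFN5, SLFN11, SLFN12 and SLFN13, are 6 genes whose proteins act on viral infection, on tRNA and on translation. Their rows were found in a table of read counts per gene by matching Ensembl identifiers to gene symbols, and 6 of 6 symbols had a row among the 60617 genes of the table. A filter on low counts left 4 of the 6 for testing, among 17223 tested genes. SLFN11 and SLFN13 did not pass it and are described by their counts.

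The RNA came from NCI-H1299, a human lung cancer cell line that lacks p53 protein and that the labels call lung adenocarcinoma, grown in RPMI1640 medium with fetal bovine serum. The control group held 3 libraries with Puro in their titles and the genotype WT, and the knockdown group held 3 libraries with Sh1 in their titles and FuHsi knocked down. The labels spell out neither title word. The series asked what FuHsi does in the nucleolus, and no row of the table carries that name, so the level of the target was not analysed here. Nothing in the labels ties a library to a separate culture. The p-values set the difference between the groups against the spread among these libraries, and that spread may be only technical.

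SAMD9 and SAMD9L are neighbouring, interferon-inducible paralogs that block the growth of poxviruses, and inherited variants that make either protein overactive cause bone marrow failure. Both proteins slow protein synthesis when active, and SAMD9 has been described as a nuclease that cuts a tRNA in its anticodon. The human Schlafen genes form a cluster on chromosome 17. Several of their proteins are RNases that cleave tRNA or ribosomal RNA, and several are induced by type I interferon, which signals through the JAK kinases and transcription factors such as STAT2 and IRF9 to a DNA word called the interferon-stimulated response element.

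The stretches before the annotated starts are shown first because interferon-driven transcription factors can bind in such stretches, and because the members differed in them. Binding was not measured, and a link between these letters and the changes in level was not tested. RefSeq promoters on GRCh38.p14 were matched by symbol for 4 of the 6 genes, SAMD9, SAMD9L, SLFN11 and SLFN12. Entries for SLFN5 and SLFN13 were not matched. The 250 bases before the start are printed 5′ to 3′ on the strand of the gene for SAMD9 (chr7:93117980-93118229, minus strand), SAMD9L (chr7:93148386-93148635, minus strand) and SLFN12 (chr17:35433175-35433424, minus strand). SLFN12L (chr17:35537679-35537928, minus strand), a family member outside the 6 that had 0 reads in every library, is shown because its window also holds the word. A single RefSeq start was used for each gene. For SAMD9, SLFN11, SLFN12 and SLFN12L it lies inside the GENCODE v29 gene model, so part of each of those windows does too. Capitals mark the response element, written as GAAANNGAAA with N for any base, in SAMD9 and SLFN12L. In SAMD9L, which has no such match, capitals mark a run of 10 bases that it shares with SAMD9.
SAMD9: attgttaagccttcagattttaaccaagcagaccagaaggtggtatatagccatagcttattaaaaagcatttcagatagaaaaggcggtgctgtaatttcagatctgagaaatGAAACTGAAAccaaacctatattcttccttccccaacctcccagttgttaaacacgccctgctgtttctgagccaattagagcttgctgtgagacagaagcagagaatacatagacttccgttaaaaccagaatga
SAMD9L: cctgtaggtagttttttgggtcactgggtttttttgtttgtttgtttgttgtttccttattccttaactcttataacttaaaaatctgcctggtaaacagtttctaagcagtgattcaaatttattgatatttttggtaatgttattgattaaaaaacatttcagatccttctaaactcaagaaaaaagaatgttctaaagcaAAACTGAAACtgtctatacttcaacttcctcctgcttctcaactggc
SLFN12: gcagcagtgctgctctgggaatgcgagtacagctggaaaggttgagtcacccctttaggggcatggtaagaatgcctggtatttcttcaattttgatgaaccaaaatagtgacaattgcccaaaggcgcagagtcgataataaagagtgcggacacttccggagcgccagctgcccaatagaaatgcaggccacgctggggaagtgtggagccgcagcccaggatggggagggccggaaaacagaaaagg
SLFN12L: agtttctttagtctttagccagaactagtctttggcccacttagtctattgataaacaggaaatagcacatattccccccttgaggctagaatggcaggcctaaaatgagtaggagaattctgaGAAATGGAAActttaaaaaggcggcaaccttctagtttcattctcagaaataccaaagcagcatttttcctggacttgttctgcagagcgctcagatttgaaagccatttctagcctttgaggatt

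The response element was present in SAMD9, at -136 to -127 from the start as GAAACTGAAA, and was absent from the windows of SAMD9L, SLFN11 and SLFN12. Both strands were searched from 250 bases before to 50 bases after each start, and 3.57% of 35116 promoters held the element in that window. Its longer form with a C at the end, GAAANNGAAAC, was also present in SAMD9 and is held by 0.795% of promoters. The gamma-activated site, a word of the interferon gamma response, was written as TTCNNNGAA. Among the 4 members with a window, it was found in SLFN11 at -182 to -174 and in none of the other 3, against 7.66% of all promoters. SLFN12L held GAAATGGAAA at -126 to -117, and also the longer form, GAAATGGAAAC. The gamma-activated site lay in SLFN12L at -132 to -124 and again at -86 to -78. A match is a description of these letters, and no match says only that they are not in the window.

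The windows of SAMD9 and SAMD9L shared no run longer than 10 bases. The run AAACTGAAAC lay 135 to 126 bases before the SAMD9 start, where it overlaps the response element, and 47 to 38 bases before the SAMD9L start. It occurred in 44 of 35116 promoters, or 0.125%. Another 2 runs of 10 bases were shared, ATTTCAGATC and CATTTCAGAT, which 0.0427% and 0.0683% of promoters hold. The shared runs were looked for after the sequences had been seen. For scale, 20 of the 30 interferon-stimulated effector genes with a promoter in the table held GAAANNGAAA (66.7%), and 345 of 11822 tested genes with one did (2.92%).

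Of the 6 genes, 4 rose in the knockdown libraries (SAMD9, SAMD9L, SLFN5 and SLFN12), 0 fell and 2 were too low to test. Among the 4, SLFN12 could be tested only because it was higher in knockdown, so its call and rank depend on that. In this comparison 30.7% of all tested genes rose and 30.9% fell at an adjusted p under 0.05 by edgeR's quasi-likelihood test. The median log2 fold change of all tested genes was 0.03. Every knockdown library lay above every control library for each of the 4 genes, which was so for 33% of all tested genes. Ordered by size of rise among all tested genes, SAMD9L, SAMD9, SLFN12 and SLFN5 ranked 31, 52, 349 and 398. In bulk RNA, more cells carrying a transcript and more of it per cell cannot be told apart.

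SAMD9 lies on chromosome 7 from 93099513 to 93118023, minus strand (ENSG00000205413, GRCh38). Its counts were 622, 665 and 592 in the control libraries and 7047, 6363 and 7695 in the knockdown libraries. The lowest knockdown library was therefore far above the highest control library. Scaled to library size, SAMD9 went from 20.0 ± 0.848 to 263 ± 33.3 CPM (library-scaled read counts, mean ± SD, n = 3), a 13.2-fold rise. The log2 fold change was 3.72 ± 0.11 (SE), and edgeR gave it an adjusted p of 1.59e-07, larger than those of SAMD9L and SLFN5. The robust fit of edgeR borrowed little from other genes for its spread: its prior degrees of freedom were 2.01 against a median of 52.5, and 30 genes had that value or lower.

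SAMD9L lies 12031 bases from SAMD9 on the same strand, from 93130055 to 93148369 (ENSG00000177409). Its counts were 45, 62 and 33 in control and 1273, 1049 and 1290 in knockdown. It was thus a scarce transcript in every control library and a readily counted one in every knockdown library. The level went from 1.48 ± 0.394 to 45.0 ± 4.86 CPM, a 30.1-fold rise. The log2 fold change was 4.91 ± 0.12 (SE), and edgeR gave it an adjusted p of 1.52e-37. This was the largest change among the 4 tested members.

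The paralogs moved by unequal amounts. The log2 ratio of SAMD9L to SAMD9 reads in a library does not depend on library scaling. It was -3.79, -3.42 and -4.17 in the control libraries and -2.47, -2.60 and -2.58 in the knockdown libraries. The knockdown values lay close together and above all 3 control values. The mean ratio went from -3.79 ± 0.371 to -2.55 ± 0.0702 (SD, n = 3), a difference of 1.24. The exact permutation test over the 6 libraries gave p = 0.1 (two-sided), which is the smallest value that 3 against 3 libraries can reach. In reads, there were 14.2 ± 3.62 SAMD9 reads per SAMD9L read in control and 5.86 ± 0.281 in knockdown, so SAMD9 stayed the more abundant paralog in every library.

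SLFN5, a mostly nuclear Schlafen protein that has been described as a repressor of transcription, lies at the edge of the cluster on chromosome 17 from 35243036 to 35273655, plus strand (ENSG00000166750). Its counts were 1182, 1142 and 917 in control and 3748, 3175 and 3617 in knockdown. The groups did not overlap, and SLFN5 was the best counted of the 6 genes in control. It went from 34.4 ± 2.32 to 131 ± 9.05 CPM, a 3.81-fold rise. On the log2 scale the rise was 1.93 ± 0.05 (SE), at an edgeR adjusted p of 5.30e-36.

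SLFN12 becomes an active RNase when small molecules bind it to the phosphodiesterase PDE3A. The gene lies on chromosome 17 from 35411060 to 35433283, minus strand (ENSG00000172123). Its counts were 10, 14 and 2 in control and 35, 26 and 30 in knockdown. The groups did not overlap, but the control counts were few and control replicate 3 stood lowest. The level went from 0.269 ± 0.184 to 1.13 ± 0.0888 CPM, a rise of 2.03 ± 0.46 (SE) on the log2 scale at an edgeR adjusted p of 0.000113. SLFN12 passed the filter on low counts through its knockdown libraries, so it could be tested only because it was higher there. Its estimate ran from 1.60 without control replicate 3 to 2.52 without control replicate 2.

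SLFN11, which is recruited to stalled replication forks and makes tumour cells sensitive to DNA-damaging drugs, was close to silent in these cells. The gene lies from 35350305 to 35373701, minus strand (ENSG00000172716). Its counts were 2, 2 and 0 in control and 2, 0 and 0 in knockdown. No library exceeded 3 counts, a floor that corresponds to 0.0918 to 0.118 CPM across the libraries, so no fold is given. SLFN13, a tRNA and ribosomal RNA nuclease, lies 1812 bases from SLFN12, from 35435096 to 35448837, minus strand (ENSG00000154760). Its counts were 0, 31 and 2 in control and 6, 6 and 2 in knockdown. The groups overlapped, and control replicate 2 held 31 of the 33 control reads. Without the filter on low counts, its log2 fold change was -0.99 ± 0.73 (SE) at an edgeR adjusted p of 0.366, so no change was called.

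The 6 gene models on GRCh38 had no exonic base in common with another gene on either strand. Sequence identity between genes was a concern for 2 of them only: of the 50-base words in their transcripts, 9.69% for SLFN11 and 7.03% for SLFN13 also occurred in another gene, 617 of them shared by this pair. The share was 1.33% for SLFN12, 0.196% for SLFN5 and 0 for SAMD9 and SAMD9L. Counts of SLFN11 and SLFN13 are therefore uncertain beyond being few. Low counts in this table were also mostly even: 61.2% of the 54477 values from 1 to 10 were, and the value 2 occurred 16126 times against 10016 times for 1. The cause was not tested, and dividing the counts by 2 left SLFN12 at a log2 fold change of 2.03 ± 0.43 (SE).

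Compared per length, SAMD9 and SLFN5 overlapped in control and lay apart in knockdown. In control, SLFN5 stood at 11.9 ± 0.945 TPM (library-scaled reads per transcript length) and SAMD9 at 10.8 ± 0.397, with overlapping libraries. SAMD9L followed at 0.770 ± 0.211 and SLFN12 at 0.282 ± 0.194 TPM, each clear of the gene before it. SLFN13 and SLFN11 had control means of 0.137 and 0.0256 TPM and overlapped. In knockdown, SAMD9 led with 160.0 ± 20.4 TPM, followed by SLFN5 with 51.0 ± 3.75, SAMD9L with 26.2 ± 2.97 and SLFN12 with 1.32 ± 0.119. No neighbours in that order overlapped. SLFN13 and SLFN11 had means of 0.0769 and 0.0158 TPM in knockdown, and their libraries overlapped.

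**Figure D1:**
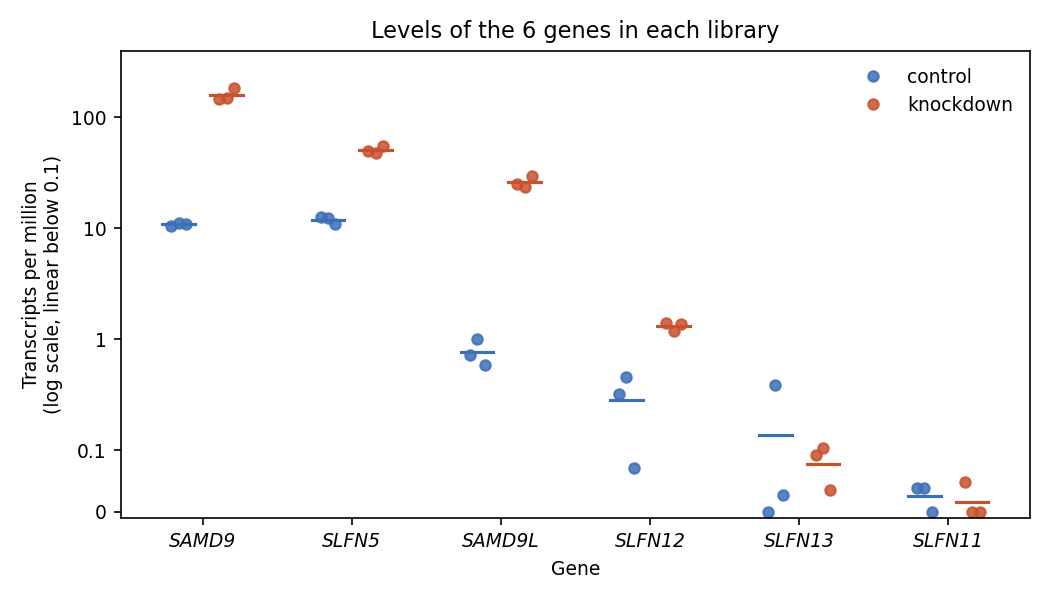
TPM (vertical axis, logarithmic above 0.1 and linear below) for the 6 genes in each of the 3 control and 3 knockdown libraries, with points for libraries and bars for group means. SAMD9, SLFN5, SAMD9L and SLFN12 are higher in every knockdown library, while SLFN13 and SLFN11 overlap between the groups and reach 0.

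Placed among all tested genes, SAMD9 had a higher level per length than 47.6% of them in control and than 94.1% in knockdown. SAMD9L moved from above 9.87% of tested genes to above 62.2%, and SLFN5 from above 49.2% to above 77.5%. SLFN12 stayed low, above 3.22% in control and 11.4% in knockdown. The rise of SAMD9L thus brought it from the scarce end to the middle of the tested genes, and that of SLFN12 did not.

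The make-up of the family's reads shifted from SLFN5 to SAMD9. SLFN5 supplied 60.8% ± 2.35 (SD, n = 3) of the reads of the 6 genes in control and 29.8% ± 1.16 in knockdown. SAMD9 supplied 35.5% ± 2.52 and 59.7% ± 1.38, and SAMD9L 2.60% ± 0.572 and 10.2% ± 0.316. Libraries of the 2 groups did not overlap for any of these 3 shares. The 6 genes together took 0.00535% of all counts in control and 0.0464% in knockdown.

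**Figure D2:**
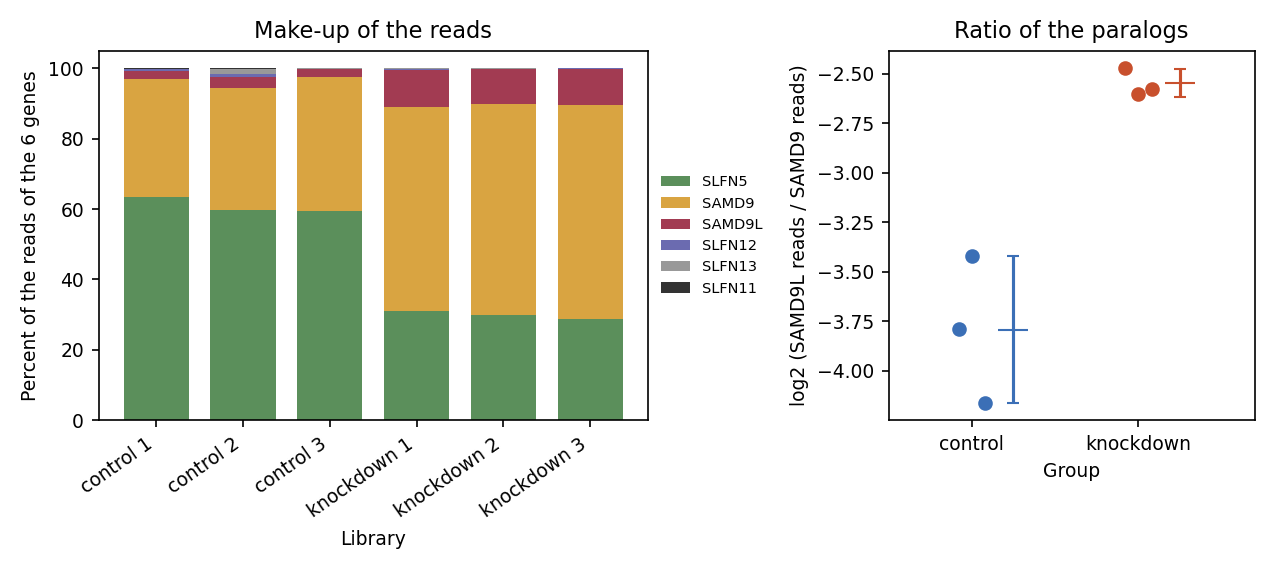
Left, percentage of the reads of the 6 genes that each gene supplied in each library. Right, log2 ratio of SAMD9L to SAMD9 reads per library (points) with the group mean and SD beside them: the control libraries run from -4.17 to -3.42 and the knockdown libraries from -2.60 to -2.47.

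The remaining human Schlafen genes did not rise. SLFN12L and SLFN14, the latter a ribosome-associated nuclease of the red cell and platelet lineages, had 0 reads in all 6 libraries, which allows up to 3 reads in each. SLFNL1, a Schlafen-like gene on chromosome 1, had counts of 90, 103 and 82 in control and 85, 64 and 58 in knockdown. The groups overlapped, and its log2 fold change of -0.19 ± 0.21 (SE) did not pass the test (edgeR adjusted p = 0.447). Of its exonic bases, 30.1% lie in exons of the antisense gene SLFNL1-AS1, so its reads cannot be assigned to a strand here.

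Of the interferon ligands, 1 had no reads in control and was counted in every knockdown library. IFNB1, which encodes interferon beta, had 0 counts in each control library and 29, 20 and 22 in the knockdown libraries, and it was called higher. It passed the filter on low counts through its knockdown libraries, so it could be tested only because it was higher there. IFNE, which encodes interferon epsilon, had 42, 46 and 24 counts in control and 18, 16 and 29 in knockdown, and its groups overlapped. Its log2 fold change of -0.58 ± 0.37 (SE) did not pass the test. IFNG and IFNK had 0 counts in all 6 libraries, and IFNA1, IFNL1, IFNL2 and IFNL3 stayed at or below 10 in each. IFNA1 had 2, 0 and 0 in control and 0, 0 and 2 in knockdown. The 3 lambda genes had 0 in each control library and were too low to test. Their knockdown counts were 0, 4 and 0 for IFNL1, 6, 2 and 0 for IFNL2, and 0, 6 and 10 for IFNL3. Among receptors, IFNAR1, a chain of the type I receptor, rose by 0.48 ± 0.04 log2 units (SE) and IFNGR2, a chain of the interferon gamma receptor, by 0.83 ± 0.07. Of the 14 ligands and receptors 8 were tested, of which 3 rose, 0 fell and 5 did not pass, with a median log2 fold change of 0.27 against 0.03 for all tested genes. Beside this count and those of the lists below stand the 30.7% of all tested genes that rose and the 30.9% that fell.

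Most signal transducers of the pathway rose. Of 15 genes 14 were tested, 10 rose, 1 fell and 3 did not pass, with a median of 0.52. USP18, which restrains the type I receptor, rose by 3.13 ± 0.21 log2 units (SE), and IRF7, a transcription factor that drives interferon genes, by 2.82 ± 0.08. IRF7 counts were 343, 272 and 309 in control and 1953, 1631 and 1990 in knockdown, without overlap. SOCS3, an inhibitor of cytokine signalling, fell by 0.20 log2 units at an edgeR adjusted p of 0.007, a call that was not made with upper-quartile scaling, with library size alone or without control replicate 3. IRF9, a DNA-binding subunit that joins STAT2, had counts of 5, 5 and 2 in control and 10, 6 and 14 in knockdown and was too low to test.

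The interferon-stimulated effectors, the antiviral proteins downstream of that pathway, rose as a group with a median log2 fold change of 3.56. Of 35 genes 32 were tested, 32 rose and 0 fell. XAF1, with 0 counts in each control library, passed the filter on low counts through its knockdown libraries. So did OAS1, MX1, RSAD2, IFI44L, BST2, IFITM1 and TRIM22. These genes could be tested only because they were higher there, and they are part of the count of rises and of the median. Called genes of adequate level with the largest rises were OAS1, a sensor of double-stranded RNA, at 6.57 ± 0.24 log2 units (SE), IFIT2, which binds viral RNA, at 5.69 ± 0.20, and OASL, an OAS-like protein, at 5.67 ± 0.27. SAMD9L and SAMD9, at 4.91 and 3.72, lay above the median of these effectors, and SLFN12 and SLFN5, at 2.03 and 1.93, lay below it. SLFN12 also passed the filter through its knockdown libraries. This order is a description only, because that median includes genes admitted by being higher in knockdown. MX2, CMPK2 and EPSTI1 were too low to test, with counts of 18, 10 and 8, of 2, 2 and 0, and of 4, 0 and 4 in the knockdown libraries against 0 in each control library.

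**Figure D3:**
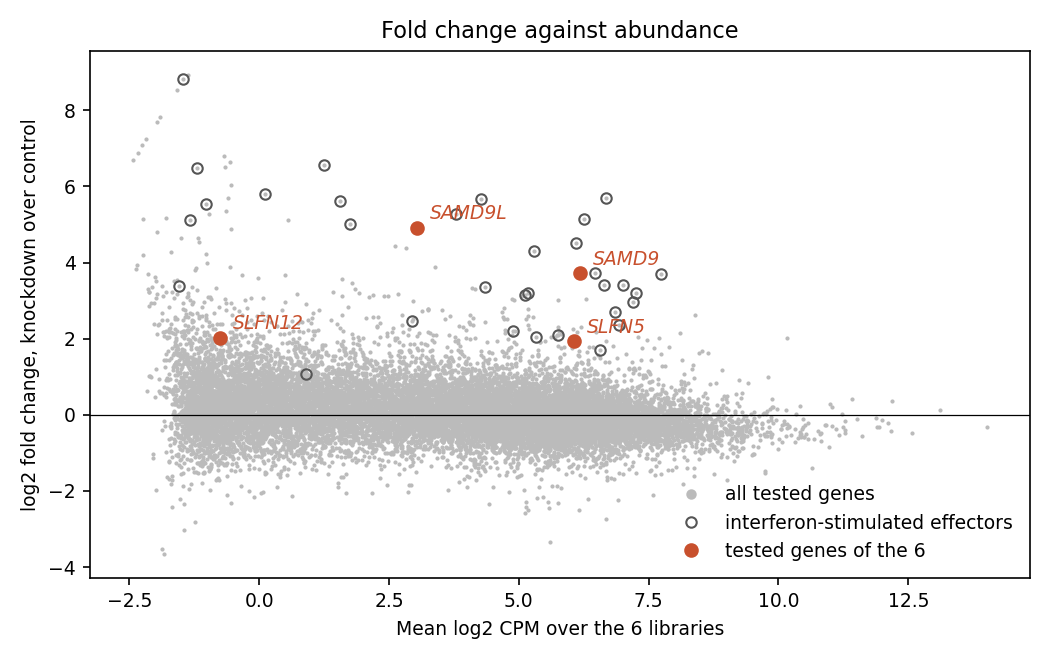
Log2 fold change of knockdown over control (vertical) against mean log2 CPM over the 6 libraries (horizontal) for 17223 tested genes in grey, with the 32 tested interferon-stimulated effectors as open circles and the 4 tested members filled. SAMD9L and SAMD9 lie among the effectors, and SLFN5 and SLFN12 near their lower edge, SLFN12 at low abundance.

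The genes whose levels across the 6 libraries were most like those of each member were taken by the smallest root mean square difference between log2 CPM values, each centred on its mean, among at least 12670 genes of adequate level. For SAMD9 they were ISG15 (a difference of 0.0623 log2 units), RIGI (0.0916) and GRIN2B (0.155). For SAMD9L they were IFIT1 (0.259), IFI44 (0.318) and IFIT3 (0.334). For SLFN5 they were PCK2 (0.0487), UBE2L6 (0.0542) and FNDC3A (0.0565). For SLFN12 they were ADAM21 (0.344), H4C14 (0.398) and ECM1 (0.444). The likeness rests mainly on the contrast between the groups, since the 6 points are 2 groups of 3 libraries. The match was closest for SLFN5 and SAMD9 and loosest for SLFN12. The mean log2 CPM of SLFN12 was -0.75, below the level of at least 1 required of the compared genes. The reason for its looser match was not tested.

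The enzymes that cleave or mend tRNA, the substrate of several members, mostly went the other way. Of 19 genes 19 were tested, 3 rose, 13 fell and 3 did not pass, with a median log2 fold change of -0.33. Among all tested genes 30.7% rose and 30.9% fell. The rises included those of ZBTB8OS, a subunit of the tRNA ligase complex, at 0.33 and of TSEN15, a subunit of the tRNA splicing endonuclease, at 0.25. The endonuclease subunits TSEN54 and TSEN34 fell by 1.04 and 0.96 log2 units, and ELAC1, which trims broken tRNA ends for repair, fell by 0.91.

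Sensors and rescue factors of stalled ribosomes were divided. Of 15 genes 15 were tested, 3 rose, 9 fell and 3 did not pass, with a median of -0.23. The shares over all tested genes were 30.7% and 30.9%. The rises were those of ASCC2, a subunit of the complex that splits collided ribosomes, at 0.35, of ZNF622, a ribosome maturation factor, at 0.34, and of PELO, a rescue factor, at 0.14. The rises numbered 2 under 9 of 14 alternatives, DESeq2 among them, and 5 with scaling to library size alone. PELO had an edgeR adjusted p of 0.0423. ABCE1, the ribosome recycling ATPase, fell by 0.98 log2 units, and the collision sensor ZNF598 and the rescue factor HBS1L each fell by 0.65. EIF2AK4, the kinase GCN2 that senses uncharged tRNA, had a log2 fold change of -0.02 that did not pass the test.

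Known partners of single members did not share a direction. PDE3A, the partner of SLFN12, had counts of 19, 15 and 12 in control and 44, 53 and 47 in knockdown. The groups did not overlap, and its log2 fold change was 1.87 ± 0.35 (SE) at an edgeR adjusted p of 5.49e-06. The related phosphodiesterase PDE3B fell by 1.01 log2 units. The endosome genes linked to the SAMD9 proteins all rose by little: EEA1 by 0.48, RAB5A by 0.34 and RGL2 by 0.18. Of 10 genes of the stressed replication fork at which SLFN11 acts, 0 rose, 9 fell and 1, ATR at 0.00, did not pass, with a median of -0.48. The share of all tested genes that fell was 30.9%. MCM3, a subunit of the replicative helicase, fell by 1.05, the licensing factor CDT1 by 0.89 and the single-strand binding protein RPA1 by 0.63.

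The genes around the members were described for comparison. Within 500 kb of the starts of SAMD9 and SAMD9L, 5 other protein-coding genes were annotated and 5 tested: 3 rose, 1 fell and 1, GNGT1, did not pass. The best counted of the rises was VPS50, a subunit of an endosomal tethering complex, at 0.61 ± 0.05 log2 units (SE). HEPACAM2 and CALCR rose by 2.47 ± 0.55 and 2.20 ± 0.59 on counts of 12, 2 and 1 against 24, 17 and 31, and of 6, 0 and 8 against 25, 12 and 20. These are far fewer reads than either SAMD9 paralog had in knockdown. HEPACAM2 and CALCR passed the filter on low counts through their knockdown libraries, so they could be tested only because they were higher there. CDK6, a cell cycle kinase, fell by 0.16 log2 units, close to the 0.15 by which scaling to library size alone moves the median of all genes.

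Around the Schlafen cluster 23 other protein-coding genes were annotated within the same distance, and 11 were tested. Of these 2 rose, 4 fell and 5 did not pass, with a median log2 fold change of 0.09. CCL5, a chemokine, had counts of 4, 0 and 0 in control and 101, 90 and 150 in knockdown, a log2 fold change of 6.51 ± 0.47 (SE). It, too, passed the filter through its knockdown libraries. The DNA ligase gene LIG3 fell by 0.78, and TAF15, AP2B1 and NLE1 fell by 0.31, 0.30 and 0.30. Over all tested genes 30.7% rose and 30.9% fell, and nothing particular to these neighbours is read from so few.

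**Figure D4:**
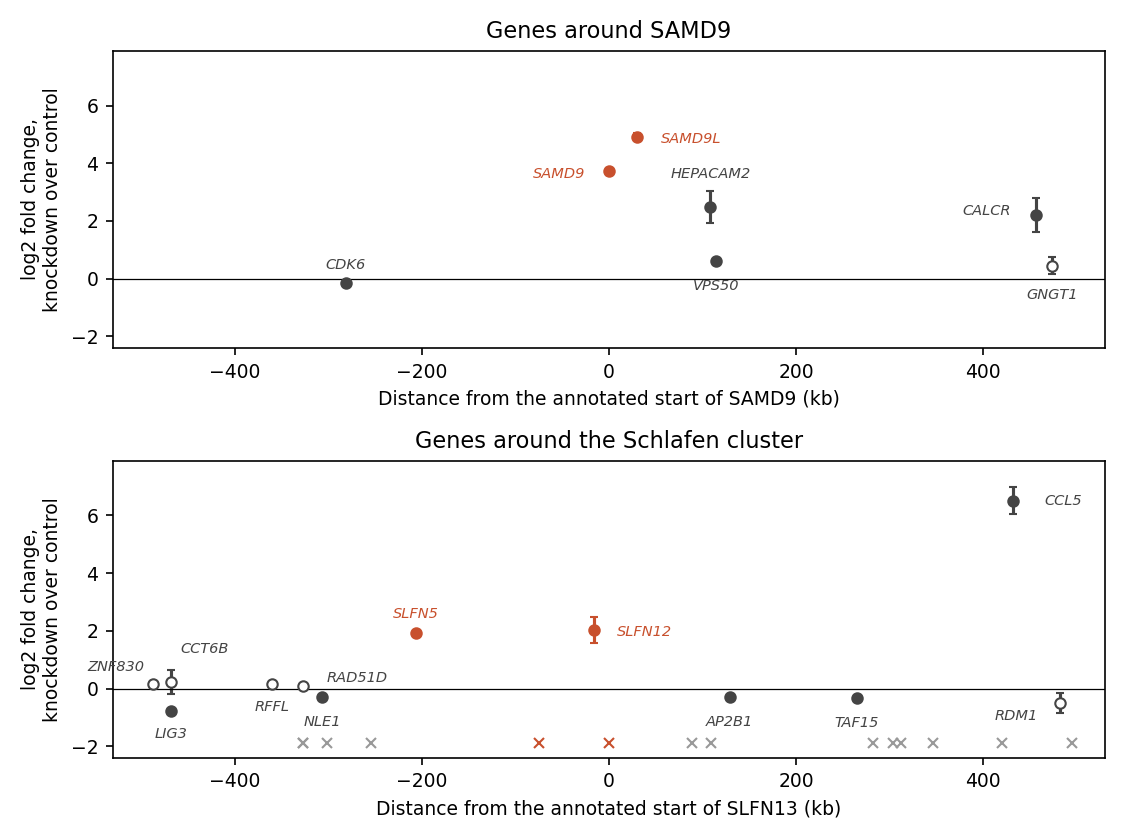
Log2 fold change (vertical, bars are SE) against distance in kb from the annotated start of SAMD9 (upper) and SLFN13 (lower), members in orange. Filled circles passed the test, open circles did not, and crosses at the foot mark genes too low to test. Among tested genes, those labelled are drawn, 1 tested gene is left out of the lower panel, and SAMD9 and SAMD9L stand at 3.72 and 4.91 and CCL5 at 6.51.

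Libraries held 24231515 to 34306849 counts, with the 3 knockdown libraries below the 3 control libraries in depth. Of 10 markers of leukocytes, cells in which the SAMD9 and several Schlafen genes are known to be expressed, 1 was tested and no gene exceeded 32 counts in a library. Their summed counts were 33 to 51 in control and 42 to 78 in knockdown. The list also holds HBB, a red-cell globin gene, which gave that highest count. Without it no gene exceeded 25, and the sums were 23 to 36 in control and 40 to 49 in knockdown. PTPRC, which encodes the pan-leukocyte protein CD45, had counts of 16, 4 and 6 in control and 21, 25 and 14 in knockdown and was called higher. CD3E had 0 in every library except 20 in knockdown replicate 3. LYZ, a myeloid gene, had 12, 2 and 1 counts in control and 0 in each knockdown library. The part of these markers in the members' results was not tested. Among epithelial and lung markers, KRT8 and KRT18 had at least 8183 counts in each library. KRT8 fell by 0.63 log2 units, and KRT18, at -0.06, did not pass the test. EPCAM stayed at or below 14 counts, CDH1 at or below 8 and NKX2-1 at or below 11, and SFTPC was at 0 throughout. NAPSA, a lung aspartic protease gene used as a marker of lung adenocarcinoma, had counts of 2, 0 and 4 in control and 20, 20 and 11 in knockdown and was called higher, at a log2 fold change of 3.22 ± 0.68 (SE). Of the mesenchymal genes, VIM had at least 20751 counts in each library and fell by 0.70 log2 units. DCN, a matrix proteoglycan gene, had 3, 12 and 3 counts in control and 11, 14 and 22 in knockdown and was called higher. PTPRC, NAPSA and DCN passed the filter on low counts through their knockdown libraries, so they could be tested only because they were higher there. Of the 9 epithelial and lung markers 3 were tested, KRT8, KRT18 and NAPSA. The keratin KRT19 was thus too low to test, and so was SFTPB. The labelled cell type was met by KRT8 and KRT18 only among the listed keratins, with VIM beside them. EPCAM, CDH1, NKX2-1 and SFTPC were at or near 0.

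The direction of each tested member held under the alternatives, and SLFN12 varied most in size. Over 14 alternative scalings, filters, tools and left-out libraries, the log2 fold change of SAMD9 ran from 3.61 to 3.87, that of SAMD9L from 4.76 to 5.14, that of SLFN5 from 1.87 to 2.08 and that of SLFN12 from 1.60 to 2.52. Each of the 4 was called higher under all 14. SLFN12 passed the filter on low counts through its knockdown libraries, so repeating the filtered fit gives it no separate support. With no such filter its log2 fold change was 2.01 ± 0.46 (SE).

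**Figure D5:**
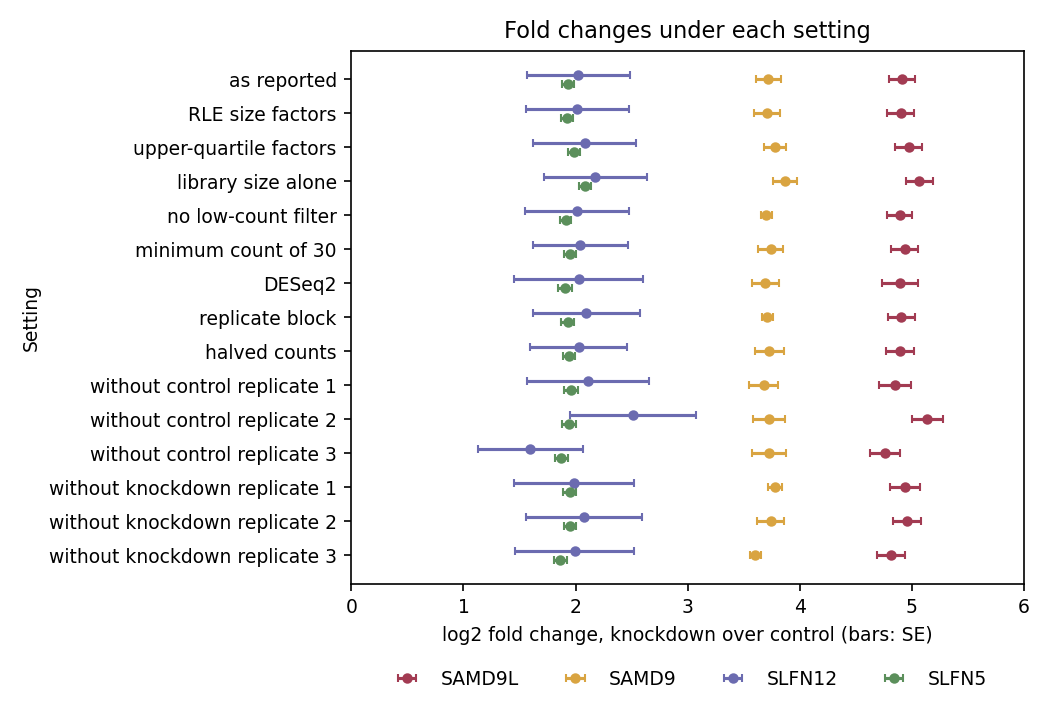
Log2 fold change of knockdown over control (horizontal, bars are SE) for the 4 tested members under the reported setting and 14 alternatives (vertical). SAMD9L, SAMD9 and SLFN5 stay within narrow ranges, and SLFN12 moves most, from 1.60 without control replicate 3 to 2.52 without control replicate 2.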

How the data were processed

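RNA of NCI-H1299 cells was sequenced in 3 control and 3 knockdown libraries. Per the labels' protocols, RNAiso Plus was used to extract RNA and a TruSeq kit to prepare libraries. The authors deposited whole-number counts per Ensembl gene, unnormalized. The submitters' processing notes name Trim Galore 0.6.6, STAR 2.7.0d, featureCounts 2.0.1, DESeq2 1.30.1 and hg38. Their order, settings, annotation release, strand and multi-mapping were not given in the sources used here, so counts of overlapping or near-identical genes are uncertain.

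From the deposited counts, genes were filtered with filterByExpr (minimum count 10), scaled by TMM and tested with the quasi-likelihood test of edgeR 4.0.16 (R 4.3.3, robust, group only), with Benjamini-Hochberg adjustment over 17223 genes and a threshold of 0.05. SE is the log2 fold change divided by the root of the F statistic. The fit was tested on simulated data. TPM used the union of GENCODE v29 exons, and log2 CPM a prior count of 2. Depth was 24231515 to 34306849 counts, with a common biological coefficient of variation of 4.67%, and floors of 3 counts cover counting error only.

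The members and the gene lists were chosen with earlier results of these data known. Named genes were the members, the whole of each short list and, from each of the other lists, up to 3 largest rises and falls among called genes with a mean log2 CPM of at least 1. They also included protein-coding neighbours within 500 kb and the 3 most alike genes per member at that level. IFNB1, IFNE, XAF1, MX1, RSAD2, IFI44L, BST2, IFITM1, TRIM22, EIF2AK4, the untested list genes and the marker genes were named after their values were seen. Alternatives were other scalings, filters, DESeq2 1.42.0, a replicate block, leaving out each library and, chosen after seeing the data, counts divided by 2. Amino-acid sequences were not used here, and some genes that this rule names are not reported here.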

Additional observations from a re-analysis of the deposited data

How the results depend on the processing

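With 3 libraries in each group no single library could be judged to stand apart. Knockdown replicate 3 was the highest knockdown library for SAMD9 (301 against 238 and 251 CPM) and SAMD9L (50.5 against 43.0 and 41.4). The same held for SLFN5 (142 against 127 and 125) but not for SLFN12 (1.17 against 1.18 and 1.03). Without that library SAMD9 stood at 3.61 ± 0.05 (SE) and SLFN5 at 1.87 ± 0.05. The calls of SAMD9, SAMD9L, SLFN5 and SLFN12 kept their direction and stayed past the threshold under all 14 alternatives. The highest edgeR adjusted p was 0.00358, for SLFN12 without control replicate 3. SLFN12 entered the filtered fits through its knockdown libraries. The difference in the log2 ratio of SAMD9L to SAMD9 ran from 1.06 to 1.43 when libraries were left out in turn. Of 252 list counts under alternatives, 246 stayed within 1.5 times. Signal transducers that fell, 1 as reported, numbered 0 with upper-quartile scaling and 0 with library size alone, and 0 to 2 when each library was left out, 0 without control replicate 3 and 2 without knockdown replicate 3. With library size alone, which moves the median of all genes by 0.15 and makes 64.4% of called genes higher in place of 49.9%, 5 ribosome stalling genes rose in place of 3, and 1 replication-fork gene in place of 0. Upper-quartile scaling gave 55.7% higher. With the longest transcript as length, SAMD9 stood at 7.95 TPM in control and 118 in knockdown, SAMD9L at 19.4 in knockdown, and SLFN5 at 8.84 and 38.2. Depth limits SLFN11, SLFN12 and SLFN13.

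Same-numbered libraries did not deviate together (correlations of -0.000751, -0.00642 and -0.0235). No pairing by replicate number was thus seen in these values, which cannot exclude that such libraries were prepared together. With the replicate number as a block, SAMD9 was at 3.71, SAMD9L at 4.91, SLFN5 at 1.93 and SLFN12 at 2.10, and 4 members were called. The block gave 5214 genes higher and 5263 lower, against 5295 and 5317 without it.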
